A study of Mus musculus with 4 samples.

Results

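Notch receptors, their ligands, the enzymes and nuclear factors that carry the signal, and canonical target genes were followed in mouse mast cells. The members were 40 listed genes. Of these, 39 had a probe set annotated with a single gene symbol, among 22180 such genes on the array, and Tcf7 did not. The arrays measured 4 preparations of BALB/c cells, 1 array each. Bone marrow-derived mast cells (BMMCs) had been grown from marrow for 3 to 4 weeks in medium with 2 cytokines, stem cell factor and interleukin-3, each at 10 ng/ml. A further 6 days followed, in normal medium (control), in medium containing 5 ng/ml TGF-beta1, or on CHO cells, a hamster ovary line made to express mouse Dll1, a Notch ligand. The coculture was followed by c-Kit/CD117 magnetic bead separation, which the labels name for no other BMMC group, and they name no coculture with CHO cells lacking Dll1. The intestinal mast cells were sorted from small intestine lamina propria of naive mice as FceRI and c-Kit/CD117 positive cells. No genetic change is given for any group, nor are age, sex or the number of mice pooled.

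Notch receptors are single-pass membrane proteins that are activated by Delta-like and Jagged ligands on a neighbouring cell. Sugars added by Pofut1 and the Fringe enzymes tune which ligand a receptor answers to. After ligand binding, Adam10 cuts the receptor outside the membrane and the gamma-secretase complex cuts it within. The freed intracellular domain joins the DNA-binding protein Rbpj and a Mastermind (Maml) coactivator in the nucleus, where it turns on Hes and Hey repressor genes among others. The title of the series concerns Notch signalling and the differentiation of mucosal mast cells, and these genes are the components and targets of that pathway.

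Values are log2 signals, set side by side within a gene and never between genes. Each array had a background limit, the 95th percentile of 1440 probe sets for odour, pheromone and bitter taste receptors. The limits lay between 5.11 and 5.20. A comparison tested those genes that exceeded the limit on 1 or both of its arrays. It was called when the difference reached 2-fold, with any value under the limit raised to it, and a fold that rests on a raised value is a lower bound ("at least"). Groups had a single array (n = 1), so replicate error is unknown and no p-value is given. As a gauge of measurement spread alone, the log2 differences of a gene's pair of probe sets had a standard deviation of 0.24 when TGF-beta1 was set against control (339 genes), 0.34 when Dll1 was (355 genes) and 0.48 when intestinal cells were (345 genes). It was 0.34 between Dll1 and TGF-beta1 (344 genes) and 0.39 between intestinal cells and Dll1 (353 genes).

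All 10 mast cell markers were above background on the TGF-beta1, Dll1 and intestinal arrays and 9 were on the control array, where the chymase Mcpt1 read 4.82. Markers of other cell types and immediate early genes were also followed, and the source of their signal was not tested. Of 13 T and innate lymphoid markers, 5, 3, 5 and 12 were above background on the control, TGF-beta1, Dll1 and intestinal arrays, and their summed linear signal was 440, 400, 868 and 2970. The 10 macrophage and dendritic markers gave 3, 5, 5 and 8 with sums of 995, 923, 1150 and 4240. The 13 epithelial markers gave 3, 3, 5 and 9 with sums of 411, 547, 507 and 1900. Such sums follow their brightest genes. On the intestinal array these were Gzma (10.33) of the lymphoid list, Itgax (11.19) of the macrophage list and Cdh1 (10.12) of the epithelial list. Cx3cr1 came next in the macrophage list at 10.35, and read 9.44 in control. The 10 endothelial markers gave 4, 4, 5 and 5 with sums of 2700, 2630, 2150 and 2200. Of the 11 markers of adherent feeder cells, 4, 3, 8 and 6 were above background, with sums of 354, 380, 608 and 439. The 14 immediate early genes, which many stimuli induce within minutes, summed to 1670, 1780, 11900 and 29000. Of the 4 B cell markers, 1, 0, 1 and 3 were above background, and of the 3 basophil markers, 3, 2, 2 and 2, with basophil sums of 898, 687, 2320 and 2030. Among these, Mcpt8 read 8.5, 7.7, 10.9 and 10.9, while Cd200r3 read 8.9, 8.8, 8.6 and 5.1. The Dll1 and intestinal arrays thus stood apart in immediate early genes, and the intestinal array in lymphoid, macrophage and epithelial genes as well. Fewer cells of a type and less RNA per cell cannot be told apart in such bulk samples.

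**Figure D1:**
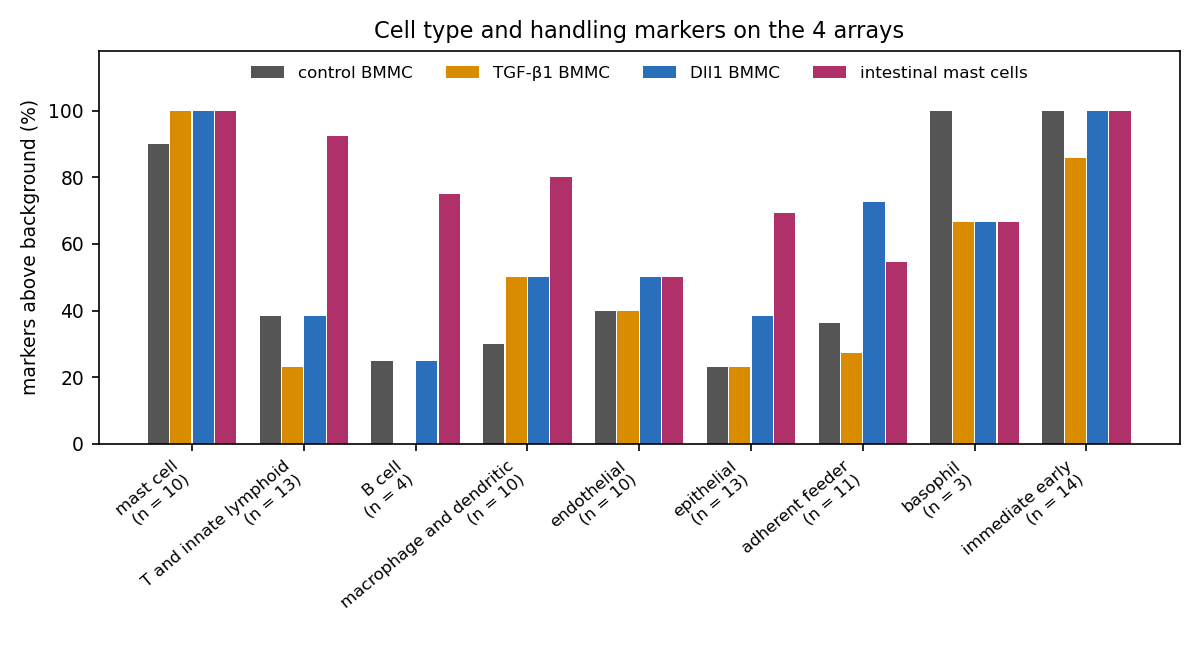
Percent of each marker list above the background limit on the 4 arrays (y axis, from 0), with the number of markers measured under each name. The intestinal bars are the tallest for lymphoid (12 of 13), macrophage (8 of 10) and epithelial markers (9 of 13), while the endothelial bars stay at 4 or 5 of 10 on all 4 arrays.

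Rbpj binds the letters TGGGAA, and a G before them makes the longer form GTGGGAA. Both were searched for on both strands in the 250 bases before each transcription start in the RefSeq promoter table (GRCm38.p6), and every match of the longer form contains the shorter. The table matched 34 of the 39 measured members with 43 promoters, the others being Hes1, Hey1, Heyl, Mfng and Itch. TGGGAA stood in 12 of these 43 (27.9%), against 21.6% of all 32851 promoters, and GTGGGAA stood in 6 (14.0%), against 5.42%. The sequences shown are those of 4 members whose levels differed at least 2-fold somewhere in the series, in either direction, and of Hes5, a target that did not. They run 5′ to 3′ on the strand of the gene and end at the base before the start, with matches in capitals.
Lfng (chr5:140607091-140607340, plus strand): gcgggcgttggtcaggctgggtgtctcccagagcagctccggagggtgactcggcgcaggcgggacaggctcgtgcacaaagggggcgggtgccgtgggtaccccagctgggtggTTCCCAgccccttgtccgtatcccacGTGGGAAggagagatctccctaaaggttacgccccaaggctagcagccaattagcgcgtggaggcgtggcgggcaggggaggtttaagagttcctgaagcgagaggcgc
Hey2 (chr10:30842784-30843033, minus strand): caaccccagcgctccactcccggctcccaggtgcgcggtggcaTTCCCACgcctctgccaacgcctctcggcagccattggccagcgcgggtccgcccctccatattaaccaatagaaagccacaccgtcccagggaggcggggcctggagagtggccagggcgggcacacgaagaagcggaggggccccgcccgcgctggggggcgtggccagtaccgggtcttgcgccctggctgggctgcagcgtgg
Maml3 (chr3:52105007-52105256, minus strand): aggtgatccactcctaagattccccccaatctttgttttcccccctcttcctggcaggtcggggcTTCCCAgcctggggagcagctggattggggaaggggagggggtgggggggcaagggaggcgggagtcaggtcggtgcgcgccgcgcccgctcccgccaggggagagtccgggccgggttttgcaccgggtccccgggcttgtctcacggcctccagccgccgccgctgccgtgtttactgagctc
Maml2 (chr9:13662210-13662459, plus strand): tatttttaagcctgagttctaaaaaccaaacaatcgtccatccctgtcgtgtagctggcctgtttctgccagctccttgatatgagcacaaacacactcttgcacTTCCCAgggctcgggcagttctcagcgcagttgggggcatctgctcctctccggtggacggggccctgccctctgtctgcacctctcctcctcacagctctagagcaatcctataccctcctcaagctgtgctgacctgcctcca
Hes5 (chr4:154960673-154960922, plus strand): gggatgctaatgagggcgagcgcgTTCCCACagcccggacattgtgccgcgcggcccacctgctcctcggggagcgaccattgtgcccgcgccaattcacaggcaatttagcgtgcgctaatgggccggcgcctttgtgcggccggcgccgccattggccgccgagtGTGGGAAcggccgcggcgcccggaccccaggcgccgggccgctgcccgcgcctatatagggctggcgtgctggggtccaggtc
Lfng holds a TGGGAA match on each strand, and the match that begins 109 bases before the start is of the longer form. Hey2 has the longer form on the reverse strand, from 207 to 201 bases before the start. Hes5 has the longer form on each strand. Maml3 and Maml2 each hold 1 match of the shorter form on the reverse strand, and the other Maml2 promoter in the table holds none. Neither do the promoters given for Notch1, Dll1, Numb and Trib2. A match is a description of letters and not evidence of binding.

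Across the members, 36 exceeded background on at least 1 array, 31 on all 4 and 3 on none. By array, 33, 33, 34 and 33 of 39 were above background on the control, TGF-beta1, Dll1 and intestinal arrays (84.6%, 84.6%, 87.2% and 84.6%), against 52.8%, 51.0%, 55.8% and 54.7% of all genes. Many passed narrowly, and with the limit at the 99th percentile 24 to 26 members were tested per comparison, instead of 33 to 35. In 10 members a difference of at least 2-fold appeared in 1 or more of the 5 comparisons: Notch1, Dll1, Lfng, Maml2, Maml3, Numb, Hes1, Hey1, Hey2 and Trib2. These are 27.8% of the 36 members tested, against 14.4% of the 13355 genes tested, by the same rule. Dll1 is among the 10, although the feeder cells carried mouse Dll1. The members were also chosen with earlier results of these data known, so these shares are no test of the pathway. Of the 29 members not called, 26 stayed under 2-fold in every comparison that tested them. The 3 below background on all arrays were not tested.

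**Figure D2:**
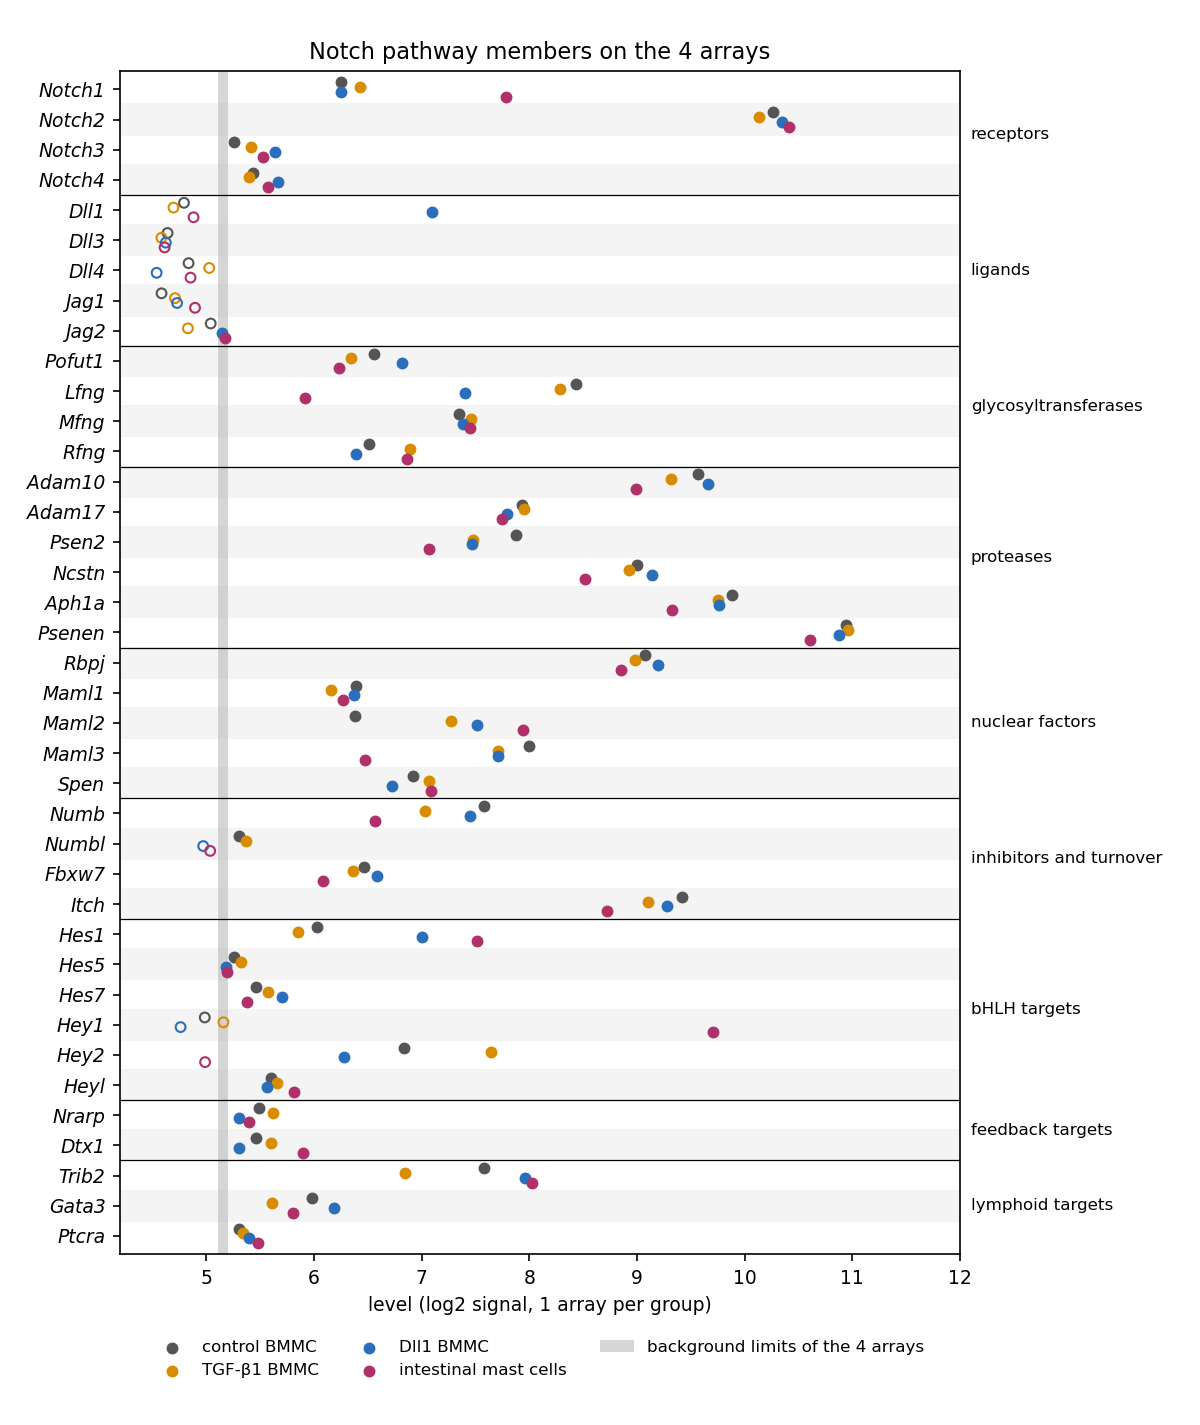
Log2 level of the 39 measured members (x axis) on the 4 arrays, 1 point per array, grouped by role. Open circles lie at or under that array's background limit and the grey band spans the 4 limits, from 5.11 to 5.20. Most members show overlapping points, while Hey1 lies at 9.71 on the intestinal array and Dll1 at 7.10 on the Dll1 array, with all their other points open.

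Of the receptors, Notch1 was the one whose level differed by array. Its level was 6.25 in control, 6.43 in TGF-beta1, 6.25 in Dll1 and 7.78 in intestinal mast cells. The 3 BMMC arrays lay close together and the intestinal array stood above them, 2.88-fold over control and 2.90-fold over Dll1. T cells also express Notch1, and the part of the lymphoid markers of that array in this result was not tested. Notch2 read 10.26, 10.14, 10.35 and 10.42 in the same order. Its range of 0.28 lay between TGF-beta1 and intestinal cells, a pair for which no spread of probe sets was computed. Notch3 (5.25, 5.42, 5.64 and 5.53) and Notch4 (5.43, 5.40, 5.67 and 5.57) were just above background everywhere, where a log2 difference is compressed. All 4 receptors thus passed the background limit on every array, Notch3 and Notch4 only narrowly, and Notch1 alone reached 2-fold.

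Among ligands, the Dll1 gene passed background solely in the Dll1 coculture. It read 4.79, 4.70, 7.10 and 4.88 on the control, TGF-beta1, Dll1 and intestinal arrays, at least 3.96-fold higher with Dll1 than in control. A second probe set for the gene read 4.72, 4.84, 5.13 and 4.85, so it barely passed the limit of 5.12 on the Dll1 array, and the pair disagree on the size. The log2 difference from control, 1.98 at its lower bound, was 1.00 with both probe sets averaged and 1.18 with the limit at the 99th percentile. The feeder cells carried mouse Dll1. Of the 11 feeder markers, Actn1, a cytoskeletal cross-linker, went from 5.20 in control to 7.16 with Dll1, and the matrix protein Thbs1 went from 4.79 to 6.20. The collagen Col1a2 (4.95) and the smooth muscle protein Tagln (4.90) were below background there. Sparc (5.90) and Loxl1 (5.74) passed background on the Dll1 array alone. Actn1 also read 6.38 on the intestinal array, which had no feeder cells, and Fn1 was highest there (5.64). CHO cells are hamster and the array is annotated with mouse genes, so how well these markers read feeder RNA is unknown. How much of the Dll1 signal came from feeder RNA was not tested. Dll3, Dll4 and Jag1 were below background on all 4 arrays. Jag2 reached at most 5.18, on the intestinal array, against a limit of 5.11.

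The sugar-adding enzymes gave 1 large difference. Lunatic fringe (Lfng), which extends O-fucose on the receptor, read 8.43 in control, 8.29 under TGF-beta1, 7.41 after Dll1 contact and 5.92 in intestinal cells. Control and TGF-beta1 lay 0.15 apart, Dll1 was 2.04-fold below control and the intestinal array was 5.73-fold below it. From Dll1 to intestinal cells the level was a further 2.81-fold lower. Its relatives did not share this order. Manic fringe (Mfng) stayed between 7.35 and 7.46 on the 4 arrays, and radical fringe (Rfng) read 6.51, 6.90, 6.39 and 6.87, with TGF-beta1 and intestinal cells the higher pair. Pofut1, which adds the first fucose, read 6.56, 6.34, 6.82 and 6.24.

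None of the cleavage enzymes passed 2-fold in any comparison. Adam10, the sheddase that acts on ligand-bound Notch, read 9.57, 9.32, 9.66 and 8.99 on the control, TGF-beta1, Dll1 and intestinal arrays. The related sheddase Adam17 read 7.93, 7.95, 7.79 and 7.75. The gamma-secretase subunits were also lowest in intestinal cells. Psen2, a catalytic subunit, read 7.88, 7.48, 7.46 and 7.07, the largest range of the group (0.81). Nicastrin (Ncstn) read 9.0, 8.92, 9.14 and 8.52, Aph1a read 9.89, 9.75, 9.76 and 9.32, and Psenen, whose product activates the complex, read 10.94, 10.96, 10.88 and 10.61. For intestinal minus control, all 6 differences lay below 0, between -0.81 and -0.18, with a median of -0.52. Over the 5242 genes whose mean level was at least 7, 55.4% were below 0 in this comparison with a median of -0.07, while 11 of the 15 members in that range were, with a median of -0.48. The second probe sets of Aph1a (7.43, 7.19, 7.58 and 6.61) and Psenen (10.83, 10.89, 10.88 and 10.64) were lowest on the intestinal array too.

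Of the nuclear factors, 2 Mastermind coactivators differed in opposite directions. Maml2 read 6.39 in control, 7.28 under TGF-beta1, 7.52 after Dll1 contact and 7.94 in intestinal cells. Control was the low array for this gene, and the other 3 exceeded it by 0.89, 1.13 and 1.55 on the log2 scale, of which the last pair are past 2-fold (2.19-fold and 2.93-fold). Maml3 read 8.0, 7.71, 7.71 and 6.48, so the 3 BMMC arrays were similar and the intestinal array was 2.88-fold below control and 2.35-fold below Dll1. Maml1 differed little (6.39, 6.16, 6.37 and 6.27). Rbpj, the DNA-binding partner, read 9.07, 8.98, 9.20 and 8.86, and Spen, a corepressor partner of Rbpj, read 6.92, 7.06, 6.73 and 7.09. A second, dimmer Rbpj probe set (5.43, 5.22, 5.27 and 4.92) was likewise lowest in intestinal cells.

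Of 4 genes that restrain or degrade Notch, the 3 above background on all arrays were lowest in intestinal cells. The same held for 35.6% of the 10532 genes above background on all arrays. Numb, an endocytic adaptor that lowers receptor activity, read 7.58, 7.03, 7.45 and 6.57, and was 2.02-fold lower in intestinal than in control cells, just past the threshold. Itch, a ubiquitin ligase for Notch, read 9.41, 9.11, 9.28 and 8.73. Fbxw7, which marks the intracellular domain for degradation, read 6.46, 6.37, 6.59 and 6.08. The Numb relative Numbl was above background on the control (5.30) and TGF-beta1 (5.37) arrays only.

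The Hes and Hey targets, basic helix-loop-helix repressors, did not share a direction. Hes1 read 6.03 in control, 5.85 under TGF-beta1, 7.01 after Dll1 contact and 7.51 in intestinal cells. Dll1 and intestinal cells formed the higher pair. The difference from control was 0.97 with Dll1, just under 2-fold and beyond the probe set spread of 0.34, while intestinal cells exceeded control 2.80-fold. Dll1 exceeded TGF-beta1 2.22-fold. The immediate early genes were high on these same arrays, with Egr1 at 5.53, 5.84, 10.37 and 10.59 and Junb at 8.33, 8.47, 11.05 and 11.77, and their part in the Hes1 result was not tested.

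Hey1 did not pass background in any BMMC culture (4.99, 5.16 and 4.76), whereas its level in intestinal mast cells was 9.71. It was at least 24.2-fold higher than in control and at least 24.1-fold higher than with Dll1. These bounds are 4.60 and 4.59 on the log2 scale, and become 3.79 and 3.71 with the limit at the 99th percentile. By size it ranked 20 among 12743 genes tested for intestinal minus control and 8 among 13053 for intestinal minus Dll1, counted from the highest. Endothelium is a known site of Hey1 expression, and of the 10 endothelial markers Cdh5 (4.67), Kdr (4.94), Emcn (4.35), Cldn5 (4.65) and Esam (4.96) were below background on the intestinal array. Pecam1 (10.87), Tek (5.98), Tie1 (5.85), Vwf (5.12) and Flt1 (5.12) were above it. Pecam1, Tek, Tie1 and Vwf were also above background in every BMMC culture, at 11.08, 7.46, 5.77 and 6.08 with TGF-beta1. Their levels therefore cannot show whether endothelial cells were present in the intestinal sample. Of the lymphoid, macrophage and epithelial markers, 12 of 13, 8 of 10 and 9 of 13 were above background on the intestinal array. Among them Cd3g read 8.84, Itgax 11.19 and Cdh1 10.12, and Cdh1 also read 7.57 with TGF-beta1. Cd2 (4.83), C1qc (4.71), Zbtb46 (4.95), Epcam (4.98), Vil1 (4.69), Krt19 (4.84) and Lgr5 (4.86) were below background on the intestinal array. The part of any of these cell types in the Hey1 result was not tested.

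Hey2 took the opposite course to Hey1. It read 6.84 in control, 7.65 under TGF-beta1, 6.28 after Dll1 contact and 4.99 in intestinal cells, below background there. TGF-beta1 gave the highest level, 0.81 above control, and Dll1 was 2.58-fold below TGF-beta1. In intestinal cells Hey2 was at least 3.31-fold lower than in control and at least 2.25-fold lower than with Dll1. Both calls rest on the background limit, and with the 99th percentile the log2 differences were -0.91 and -0.36, short of 2-fold. Heyl (5.60, 5.65, 5.56 and 5.82), Hes5 (5.26, 5.32, 5.18 and 5.20) and Hes7 (5.46, 5.57, 5.71 and 5.38) were close to background on all arrays. A second Hes7 probe set was above background in control alone (5.43, 4.95, 4.79 and 4.68). A second Hes5 probe set was below background everywhere.

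**Figure D3:**
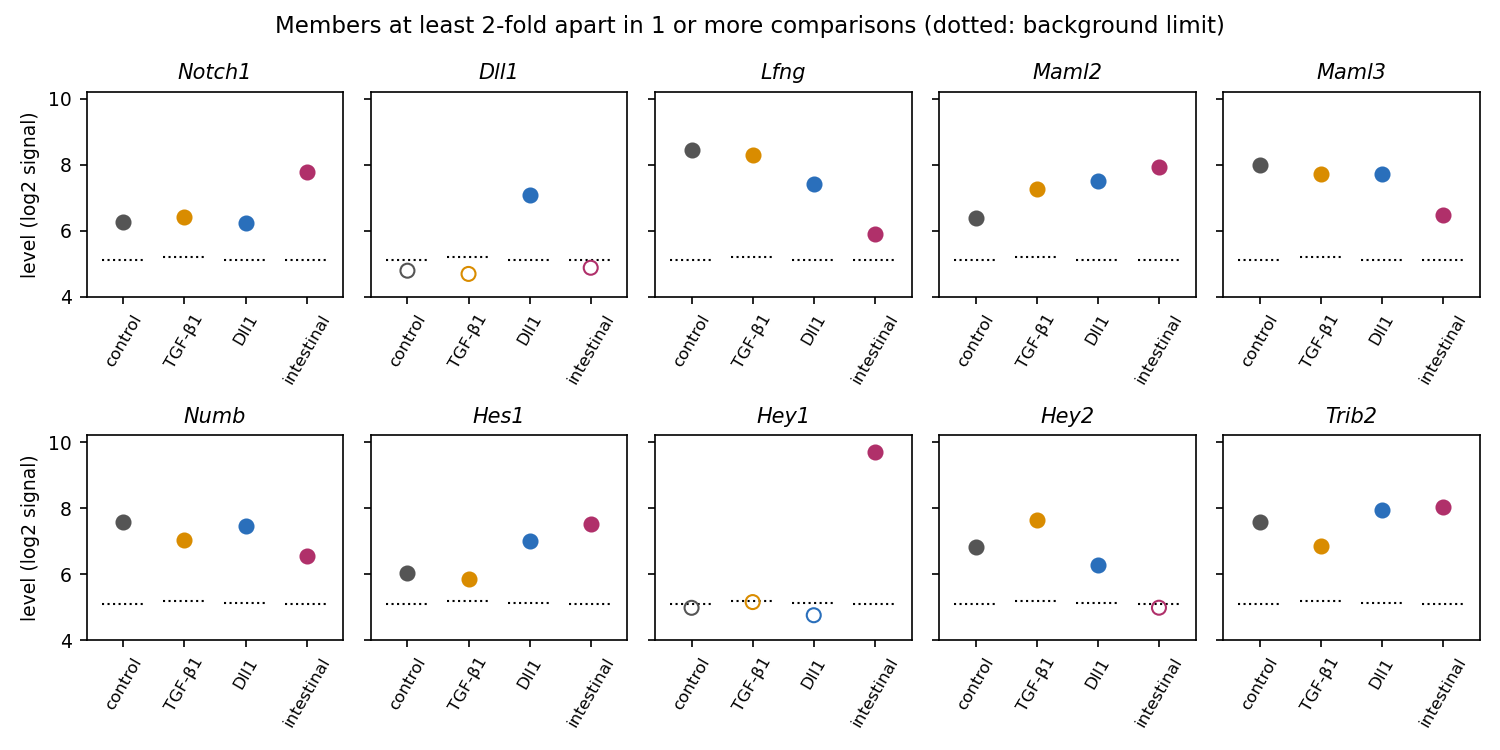
Log2 level (y axis) of the 10 members that differed at least 2-fold in 1 or more comparisons, 1 point per array, with the background limit dotted and open points at or under it. Hey1 is open on the 3 BMMC arrays and at 9.71 in intestinal cells, while Hey2 and Lfng are lowest there, at 4.99 and 5.92.

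Feedback and lymphoid targets differed little, apart from Trib2. Nrarp, which limits Notch activity and is induced by it, read 5.49, 5.62, 5.31 and 5.39. Dtx1, a ubiquitin ligase of the receptor, read 5.46, 5.61, 5.31 and 5.90, and was thus highest in intestinal cells, by 0.44 over control. Neither was higher with Dll1 than in control, the differences being -0.18 and -0.15. The pseudokinase Trib2 read 7.58 in control, 6.84 under TGF-beta1, 7.96 after Dll1 contact and 8.03 in intestinal cells. TGF-beta1 was the low array for Trib2, 2.16-fold below Dll1. Gata3, a transcription factor of T cells that Notch can induce, read 5.98, 5.61, 6.19 and 5.80. Ptcra, the pre-T cell receptor alpha chain, stayed between 5.30 and 5.48.

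The Dll1 coculture was compared with control BMMCs to follow these genes after contact with a Notch ligand. Ligand, CHO cells and bead separation went together on the Dll1 array and cannot be told apart. On it 12 of 14 immediate early genes were at least 2-fold higher than in control, and their part in the results was not tested. Of the 39 measured members, 35 were tested, Dll1 and Maml2 were at least 2-fold higher and Lfng was lower. Over all 12806 genes tested, 1.63% were higher and 1.78% lower by the same rule, and 1.37% and 2.48% with array medians subtracted. Hes1 (0.97) lay just under the threshold and Lfng (-1.03) just past it. The median measured difference over the 39 was -0.01, against 0.02 over all genes. Among the other targets, Hey2, Heyl, Hes5, Nrarp and Dtx1 read no higher with Dll1 than in control, and Hey1 was below background on both arrays. Trib2 (0.38), Hes7 (0.25), Gata3 (0.21) and Ptcra (0.10) read higher, all under 2-fold.

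For TGF-beta1 against control, none of the 33 tested members reached 2-fold, where 0.506% of 12063 genes were higher and 0.887% lower. The largest differences were those of Maml2 (0.89), Hey2 (0.81) and Trib2 (-0.74), each beyond the probe set spread of 0.24. The members' median was -0.04, against 0.01 over all genes.

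Set directly against TGF-beta1, the Dll1 culture had 3 higher members, Dll1, Hes1 and Trib2, and 1 lower, Hey2, among 35 tested. The background was 2.19% higher and 1.89% lower of 12690 genes. Part of this split lay on the TGF-beta1 side, since Hey2 and Trib2 differed from control by 0.81 and -0.74 with TGF-beta1 and by -0.55 and 0.38 with Dll1. Both treatments were compared with the same control array. The members' median was 0.04, against 0.02 over all genes.

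Intestinal cells differed most from control BMMCs. Of 35 tested members, 4 were at least 2-fold higher (Notch1, Maml2, Hes1 and Hey1) and 4 lower (Lfng, Maml3, Numb and Hey2), while 4.47% of 12743 genes were higher and 6.73% lower. The median over the 39 was -0.06, against 0.00 over all genes. Tissue source, digestion, sorting and the preparation went together on this array and cannot be told apart. The part of the other cell types, whose markers are given above, was not tested.

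Against the Dll1 culture, intestinal cells had 2 members higher (Notch1 and Hey1) and 4 lower (Dll1, Lfng, Maml3 and Hey2) of 35 tested. Of 13053 genes, 3.56% were higher and 4.13% lower. Hes1 and Maml2, both high in intestinal cells, were 0.51 and 0.42 above their level with Dll1, against a probe set spread of 0.39. Hey1 and Notch1 in contrast were no higher with Dll1 than in control, at 4.76 against 4.99, both below background, and 6.25 against 6.25. Among the 31 members above background on all 4 arrays, the lowest level was the intestinal one for 14 (45.2%), against 35.6% of 10532 genes.

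**Figure D4:**
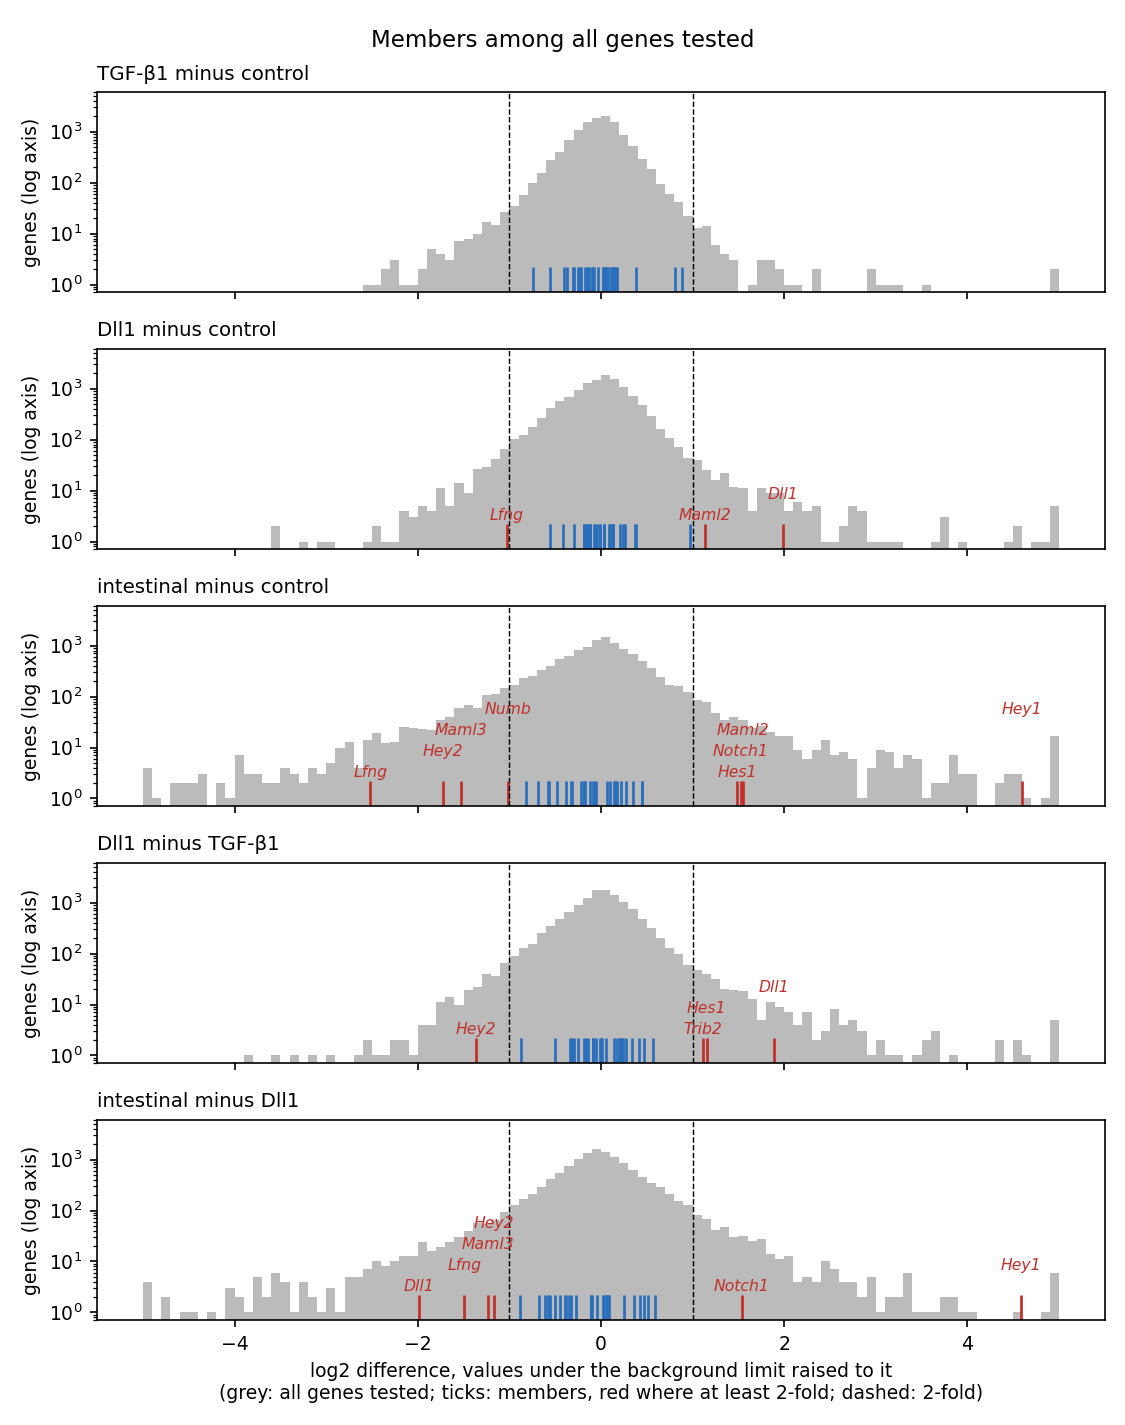
Log2 differences in the 5 comparisons (x axis) for all genes tested (grey, counts on a log axis) and for the members (ticks, red and named where at least 2-fold, with dashed lines at 2-fold). Differences beyond 5 are drawn at 5. The members sit mostly within 2-fold, and Hey1 lies far out at 4.60 and 4.59 in the intestinal comparisons.

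A further 48 genes of the pathway were listed, and 44 had a single-symbol probe set, 40 of them tested in each comparison. With TGF-beta1 none reached 2-fold, the largest difference being that of Cbl, a ubiquitin ligase, at 0.98. With Dll1, Cbl and Il2ra, the interleukin-2 receptor alpha chain, were higher than in control (1.00 and 1.10) and none was lower, against 1.63% and 1.78% of all genes tested. In intestinal cells 2 were higher (5.00%) and 7 lower (17.5%) than in control, where 4.47% and 6.73% of all genes tested were. The largest were Cbl (2.53), Dtx4 (-2.07), Dtx3 (-2.07), Igf1r (-1.34) and the proprotein convertase Furin (-1.33), which cuts the Notch precursor. Dtx3 and Dtx4 are relatives of Dtx1 and read 7.76, 7.16, 6.77 and 5.69 and 10.17, 9.82, 10.18 and 8.09. Cbl read 6.81, 7.80, 7.82 and 9.35, so control was its low array, as for Maml2.

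Il2ra, an activation marker of lymphocytes that Notch can induce, took another order, at 6.21, 5.43, 7.31 and 5.31. It was highest with Dll1 and 4.02-fold lower in intestinal cells than there. Igf1r (6.77, 6.09, 7.35 and 5.43) shared that order. Against TGF-beta1, the Dll1 culture had 3 of the 40 higher, Il2ra (1.89), Igf1r (1.26) and the granule protease Gzmb (1.01), and none lower, against 2.19% and 1.89% of all genes tested. Intestinal minus Dll1 gave 1 higher, Cbl (1.53), and 7 lower (2.50% and 17.5%, against 3.56% and 4.13% of all genes tested). Of the lower genes, Dtx4 (-2.09), Il2ra (-2.01), Igf1r (-1.92) and the kinase Cdk8 (-1.19) differed most.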

How the data were processed

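The authors deposited log2 signals for 33793 probe sets, measured on 4 Affymetrix arrays. The log base was inferred from the range (4.13 to 13.14), and neither labels nor file header name the summarisation software or genome build. Per the labels, cDNA was amplified from 2 ng of RNA. Once sorted, values differed between arrays by at most 0.25, so they had been scaled alike before deposit, and they were used as deposited. Symbols came from the platform annotation (23521 probe sets with 1 symbol, 1814 with several, 8458 not listed). For 1082 genes with more than 1 probe set, the one with the highest mean was used. Analyses ran in Python 3.11.15 with pandas 2.3.3. The 2-fold rule was checked on simulated data, with changes well past 2-fold in genes above background. That check does not bear on calls near the threshold or the background limit. All members were accounted for. Values on all arrays were set to be given for members called in any comparison, receptors, Dll1 and Hes, Hey and feedback targets. Those of the remaining members were added after they were seen. Of the further pathway list, at most 5 called genes per comparison were given with their differences. The members and lists were chosen with earlier results of these data known. The number of arrays limits the precision.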

Additional observations from a re-analysis of the deposited data

How the results depend on the processing

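Members were counted again after subtracting array medians, after quantile normalization, with the limit at the 99th percentile or absent, with probe sets averaged per gene, and at 1.5-fold. Subtracting 16 from the linear signal, the offset, was chosen after seeing the data. Counts of called members stayed within 1.5 times except in 3 cases. At 1.5-fold, 3 members were called for TGF-beta1 minus control (Maml2 and Hey2 higher, Trib2 lower) and 10 for intestinal minus Dll1. With the offset, 1 was called for TGF-beta1 minus control (Maml2). Of 21 calls, each was kept with medians subtracted, with no limit and with the offset. Quantile normalization lost Lfng for Dll1 minus control (-0.97) and Numb for intestinal minus control (-0.93). The 99th percentile lost Hey2 for intestinal minus control (-0.91) and intestinal minus Dll1 (-0.36). The mean of probe sets lost Dll1 for Dll1 minus TGF-beta1 (0.91) and, by less than 0.01, for intestinal minus Dll1. No called difference changed sign. No paired analysis was possible because each group had 1 array. For the same reason no replicate could be left out.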
